A study of Mus musculus with 4 samples.

Results

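The genes described here are App, which encodes the amyloid precursor protein, its homologs Aplp1 and Aplp2, and the secretase genes Bace1, Adam10, Psen2, Ncstn, Aph1a and Psenen. They were chosen by symbol, and these 9 genes were all found among the 32285 genes of each of the 4 count matrices. The matrices hold single-nucleus RNA counts from the hippocampus of female C57BL/6J mice, which entered a protocol of 10 weeks at the age of 8 weeks. The groups were App NL-G-F knock-in with exercise, App NL-G-F knock-in without exercise, wild type (WT) with exercise and WT without exercise, where exercise means voluntary running in a wheel. Each group had 1 library. One label, the treatment protocol, puts all samples in cages with a wheel. The titles and the treatment label set the groups without exercise apart, and grouping here follows the titles. How many mice were pooled for a library is not stated.

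The amyloid precursor protein is a membrane protein that is cut in alternative ways. Bace1 makes the first cut of the path that leads to amyloid-beta, and Adam10 makes the cut within the amyloid-beta stretch that prevents its release. The stub left by either cut is then cleaved inside the membrane by gamma-secretase, a complex of a presenilin such as Psen2, Ncstn, an Aph1 protein and Psenen. In the NL-G-F knock-in the mutated and humanised amyloid-beta sequence stands in the mouse's own App gene, so its transcript is driven by the App promoter in the cells that normally use it. Counting at the 3′ end cannot tell this allele from the WT one, so the App count does not check the genotype labels. RNA in nuclei is not a measure of protein or of cleavage.

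On GRCm38 the substrate genes App (ENSMUSG00000022892), Aplp1 (ENSMUSG00000006651) and Aplp2 (ENSMUSG00000031996) lie on chromosome 16 from 84949685 to 85173766, chromosome 7 from 30434982 to 30445535 and chromosome 9 from 31149557 to 31211815. Bace1 (ENSMUSG00000032086) and Adam10 (ENSMUSG00000054693) lie on chromosome 9, from 45838580 to 45864399 and from 70678997 to 70780229. Psen2 (ENSMUSG00000010609) and Ncstn (ENSMUSG00000003458) lie on chromosome 1, from 180227004 to 180263438 and from 172066013 to 172082795. Aph1a (ENSMUSG00000015750) lies on chromosome 3 from 95893969 to 95898288, and Psenen (ENSMUSG00000036835) on chromosome 7 from 30561863 to 30563627. The gene bodies span from 1.76 kb for Psenen to 224 kb for App. Genes on the opposite strand overlap 6 of them, Gm10791, Gm49227 and Gm49226 at App, Gm16536 and Rnf214 at Bace1, Gm31728 at Psen2, Copa at Ncstn, Car14 at Aph1a and U2af1l4 at Psenen. Strand handling in counting was not given in the sources used here, so reads of these pairs may not be told apart.

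The start regions of 4 members are shown, that of the gene changed in the knock-in and those of the 3 members with most differences past 1.5-fold between libraries. Each holds 250 bases before and 50 bases after the gene's start in RefSeq (GRCm38.p6), read 5′ to 3′ on the gene's strand. They are App at chr16:85173658-85173957 (minus strand), Aplp1 at chr7:30445533-30445832 (minus strand), Aph1a at chr3:95893671-95893970 (plus strand) and Psenen at chr7:30563578-30563877 (minus strand). Capitals mark the GC box GGGCGG or, on the other strand, CCGCCC.
App: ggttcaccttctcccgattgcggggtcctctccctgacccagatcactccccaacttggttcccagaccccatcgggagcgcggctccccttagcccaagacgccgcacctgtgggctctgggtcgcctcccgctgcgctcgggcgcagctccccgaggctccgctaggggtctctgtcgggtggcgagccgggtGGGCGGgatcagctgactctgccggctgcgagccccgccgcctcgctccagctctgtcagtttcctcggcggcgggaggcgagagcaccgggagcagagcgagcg
Aplp1: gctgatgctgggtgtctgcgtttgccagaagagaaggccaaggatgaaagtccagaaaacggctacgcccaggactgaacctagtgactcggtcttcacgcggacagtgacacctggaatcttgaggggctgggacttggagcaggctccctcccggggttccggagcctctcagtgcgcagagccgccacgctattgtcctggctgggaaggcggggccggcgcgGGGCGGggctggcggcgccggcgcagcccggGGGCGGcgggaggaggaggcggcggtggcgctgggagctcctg
Aph1a: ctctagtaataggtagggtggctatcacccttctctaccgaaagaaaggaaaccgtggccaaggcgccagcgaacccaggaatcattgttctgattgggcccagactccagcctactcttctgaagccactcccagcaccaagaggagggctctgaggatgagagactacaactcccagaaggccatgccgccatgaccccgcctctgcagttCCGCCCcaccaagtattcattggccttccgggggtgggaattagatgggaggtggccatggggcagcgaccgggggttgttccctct
Psenen: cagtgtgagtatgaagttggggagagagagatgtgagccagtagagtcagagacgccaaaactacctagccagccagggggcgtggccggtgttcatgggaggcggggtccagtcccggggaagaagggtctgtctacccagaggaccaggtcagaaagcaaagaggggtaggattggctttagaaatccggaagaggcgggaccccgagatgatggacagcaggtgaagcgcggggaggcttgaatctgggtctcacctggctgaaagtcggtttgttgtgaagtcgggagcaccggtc
Of the 9 members, 8 matched a RefSeq start region (Bace1 is named only). Psen2 and Psenen had 2 regions each, and the one nearest the gene's 5′ end in the coordinates above was used. For Psen2 it lay 7138 bases from that end. The start regions of all genes kept every entry of 27025 symbols. A GC box stood in 6 of these 8, against 35.7% of 32851 start regions of all genes. The letters TATAAA or TTTATA stood in 0 of 8, against 13.6% of all start regions, and CCAAT or ATTGG in 4 of 8, against 37.4%. The counts took both strands, and matches that overlapped were each counted. CG steps numbered from 10 in Aph1a to 32 in Adam10, against a median of 7. The GC share ran from 58% to 73.3%, against a median of 52.7%. The Psen2 region not used held 0 GC boxes, 8 CG steps and 47.7% GC. That of Psenen held 0 GC boxes, 23 CG steps and 58.3% GC. The region of App held 1 GC box, 30 CG steps and 71% GC, and that shown for Psenen held 0 GC boxes, 13 CG steps and 58.3% GC. A match is a description of letters and not a site of binding.

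After filters on genes, UMIs (unique molecular identifiers, 1 per captured RNA molecule), mitochondrial share and doublets, 8745 nuclei were kept in the knock-in with exercise, 9278 in the knock-in without exercise, 6508 in WT with exercise and 10213 in WT without exercise. The libraries held between 64158446 and 91676884 UMIs. Nuclei were clustered and named from marker genes, so that a class name means nuclei like that type. The summed level of each class's own markers was between 5137 and 8270 CPM in microglia and above 10000 CPM in astrocytes and oligodendrocytes. UMIs were summed over the nuclei of a class in a library and given per 1000000 UMIs of that class (CPM), with exact Poisson 95% intervals that cover counting error only. With 1 library in a group there is no replicate check of any difference, and neither tests nor p-values are given. Libraries shared 20 to 42 cell barcodes per pair. Free RNA in the suspension may add UMIs to any class, and its part in the levels was not tested.

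The libraries also differed in ways that touch every gene. Malat1, a nuclear RNA, took 3.35% of kept UMIs in the knock-in with exercise, 9.52% in the knock-in without exercise, 6.07% in WT with exercise and 3.22% in WT without exercise. The choroid plexus marker list, which oligodendrocytes should lack, stood in oligodendrocytes at 7.46 CPM in the knock-in with exercise, 269.7 CPM in the knock-in without exercise, 6.42 CPM in WT with exercise and 11.1 CPM in WT without exercise. Some classes were also made of different clusters in different libraries. Most granule neurons came from cluster 26 in the knock-in with exercise (94.01%), cluster 6 in the knock-in without exercise (62.4%) and cluster 7 in WT with and without exercise (50.9% and 55.4%). Most oligodendrocytes came from cluster 27 in the knock-in with exercise (97.8%), cluster 11 in the knock-in without exercise (92.5%) and cluster 0 in WT with and without exercise (89.8% and 89.2%). The largest cluster of CA1 neurons was cluster 9 in the knock-in with exercise (50.5%) and cluster 1 in the other libraries (60.2% to 69.4%). Aplp1 was the only member among the 2000 genes used for clustering.

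App RNA was found in every class, highest in oligodendrocytes and lowest in astrocytes in 4 of 4 libraries. In oligodendrocytes it stood at 1067 CPM in the knock-in with exercise, 1153 CPM in the knock-in without exercise, 1225 CPM in WT with exercise and 1287 CPM in WT without exercise. In astrocytes it stood at 322 CPM in the knock-in with exercise, 224 CPM in the knock-in without exercise, 174 CPM in WT with exercise and 261 CPM in WT without exercise, from 28 to 212 UMIs. The mean over the libraries was 1183 ± 94.9 CPM in oligodendrocytes and 245.2 ± 62.3 CPM in astrocytes (SD, n = 4 libraries of different groups), a 4.82-fold span.

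Between these ends the order of means was Cajal-Retzius cells, inhibitory neurons, CA3 neurons, CA1 neurons, subicular excitatory neurons, microglia, oligodendrocyte precursors and granule neurons of the dentate gyrus. The ranges of neighbours in this order overlapped, except that oligodendrocytes lay above Cajal-Retzius cells and granule neurons above astrocytes. The neurons kept their order within libraries: inhibitory neurons were above CA3 neurons, CA3 above CA1 and CA1 above subicular neurons in 4 of 4. In granule neurons App stood at 392 CPM in the knock-in with exercise, 339.5 CPM in the knock-in without exercise, 335 CPM in WT with exercise and 369.6 CPM in WT without exercise. In CA1 neurons, the output neurons of the hippocampus, it stood at 531 CPM in the knock-in with exercise, 467 CPM in the knock-in without exercise, 485 CPM in WT with exercise and 526 CPM in WT without exercise. Granule neurons were thus below CA1 neurons in every library, by more than the whole range of either class.

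Inhibitory neurons, which use GABA, were not uniform. Those like the CGE lineage (marked by Adarb2 and Vip) held App at 739.8 CPM in the knock-in with exercise, 701 CPM in the knock-in without exercise, 685 CPM in WT with exercise and 744 CPM in WT without exercise. Those like the MGE lineage (marked by Lhx6 and Sox6) held 511 CPM in the knock-in with exercise, 483 CPM in the knock-in without exercise, 476 CPM in WT with exercise and 523 CPM in WT without exercise. The ranges of both subclasses over the libraries did not overlap.

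**Figure D1:**
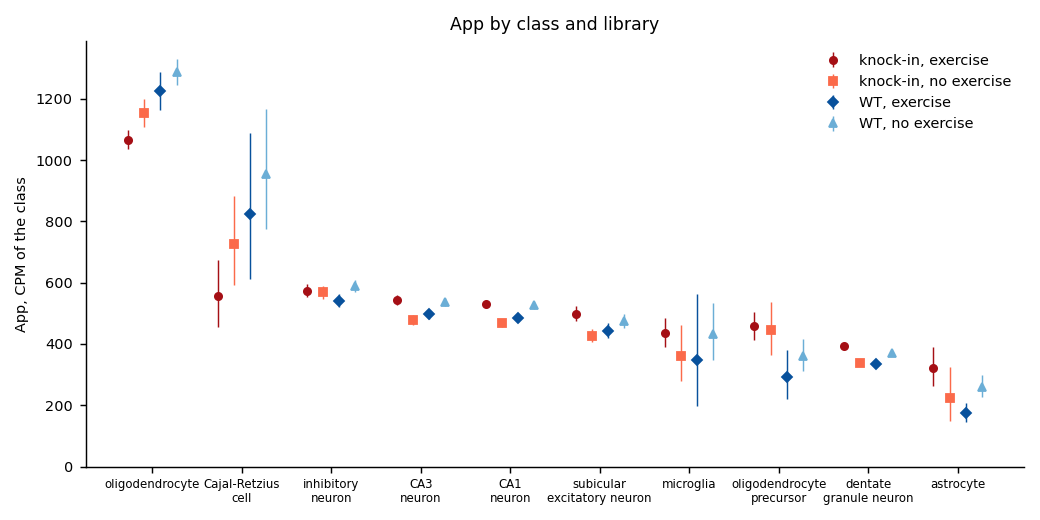
App level (y axis, CPM of the class) in 10 classes (x axis, ordered by the mean of 4 libraries), with 1 point per library and bars for the 95% counting interval. Oligodendrocytes (1067 to 1287 CPM) lie above every other class and astrocytes (174 to 322 CPM) are lowest in each library.

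Aplp1, the homolog that is largely restricted to the nervous system, was also highest in oligodendrocytes in 4 of 4 libraries, but its level there was far less even than that of App. It stood at 332 CPM in the knock-in with exercise, 1150.3 CPM in the knock-in without exercise, 466 CPM in WT with exercise and 499.8 CPM in WT without exercise. The knock-in without exercise was thus 3.47-fold above the knock-in with exercise, the lowest, whereas for App the highest library was 1.21-fold above the lowest. Among granule, CA1, CA3, subicular and inhibitory neurons, Aplp1 was highest on average in granule neurons, at 139.7 CPM in the knock-in with exercise, 205 CPM in the knock-in without exercise, 104 CPM in WT with exercise and 142 CPM in WT without exercise, and lowest in inhibitory neurons, at 76.4 ± 27.0 CPM (SD, n = 4 libraries).

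Aplp2, the homolog found in most tissues, had a flatter profile. Its means ran from 192.8 ± 25.9 CPM in Cajal-Retzius cells and 184.3 ± 34.6 CPM in oligodendrocytes to 73.95 ± 10.8 CPM in CA1 neurons (SD, n = 4 libraries), a 2.61-fold span, and no neighbours in its order had ranges that stood apart. Unlike App, it was higher in granule neurons than in CA3 and CA1 neurons. Its level in granule neurons was 123 CPM in the knock-in with exercise, 116 CPM in the knock-in without exercise, 97.2 CPM in WT with exercise and 116 CPM in WT without exercise, and in CA1 neurons 83.5 CPM in the knock-in with exercise, 78.7 CPM in the knock-in without exercise, 58.7 CPM in WT with exercise and 74.9 CPM in WT without exercise.

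Bace1, the beta-secretase, was highest on average in oligodendrocytes, at 59.4 CPM in the knock-in with exercise, 50.2 CPM in the knock-in without exercise, 50.5 CPM in WT with exercise and 70.0 CPM in WT without exercise. It was the highest class in 2 of 4 libraries only. Neuron classes lay close together, with means between 21.1 and 27.7 CPM and overlapping ranges. In microglia Bace1 rested on few UMIs and ranged from 0 to 34.9 CPM, with 0 UMIs in the 25 nuclei of WT with exercise, where 3 UMIs would be 65.0 CPM.

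Adam10, the main alpha-secretase of neurons, was highest in microglia and lowest in CA3 neurons in 4 of 4 libraries. In microglia it stood at 167 CPM in the knock-in with exercise, 231 CPM in the knock-in without exercise, 217 CPM in WT with exercise and 334 CPM in WT without exercise, from 131, 41, 10 and 67 UMIs in the same libraries. Oligodendrocytes came next, at 136 CPM in the knock-in with exercise, 172 CPM in the knock-in without exercise, 207 CPM in WT with exercise and 217 CPM in WT without exercise, above the range of every neuron class. CA3 neurons held 47.5 CPM in the knock-in with exercise, 59.0 CPM in the knock-in without exercise, 61.5 CPM in WT with exercise and 62.1 CPM in WT without exercise.

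The gamma-secretase genes did not share 1 profile over the classes. Psen2, a catalytic subunit, was highest on average in Cajal-Retzius cells (42.0 CPM) and microglia (39.0 CPM). Both values are uncertain, the microglial one resting on 4 UMIs in 3 of 4 libraries. The Cajal-Retzius one came from 27 to 81 nuclei, with a counting interval of -2.67 to 2.38 for the log2 ratio of exercise in WT. Its mean was lowest in granule neurons, the lowest class in 2 of 4 libraries, at 11.97 CPM in the knock-in with exercise, 7.96 CPM in the knock-in without exercise, 9.15 CPM in WT with exercise and 10.4 CPM in WT without exercise. Ncstn, the subunit that binds the substrate stub, was highest in microglia in 3 of 4 libraries, at 45.9 CPM in the knock-in with exercise, 90.2 CPM in the knock-in without exercise, 108 CPM in WT with exercise and 79.7 CPM in WT without exercise, from 36, 16, 5 and 16 UMIs in the same libraries. Its other class means lay between 24.5 and 39.9 CPM.

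Aph1a, a scaffold subunit, was the flattest of the 9 members, with a 1.98-fold span between the means in oligodendrocytes (33.0 CPM) and oligodendrocyte precursors (16.7 CPM) and no neighbours whose ranges stood apart. Psenen, the small subunit that activates presenilin, was low in all classes. Its class means ran from 28.8 CPM in microglia and 26.8 CPM in oligodendrocytes to 7.54 CPM in subicular neurons. The microglial mean is uncertain, with levels from 0 to 67.6 CPM in the libraries. Its spread between libraries exceeded the spread between classes in places: oligodendrocyte levels ran from 10.8 to 53.4 CPM.

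**Figure D2:**
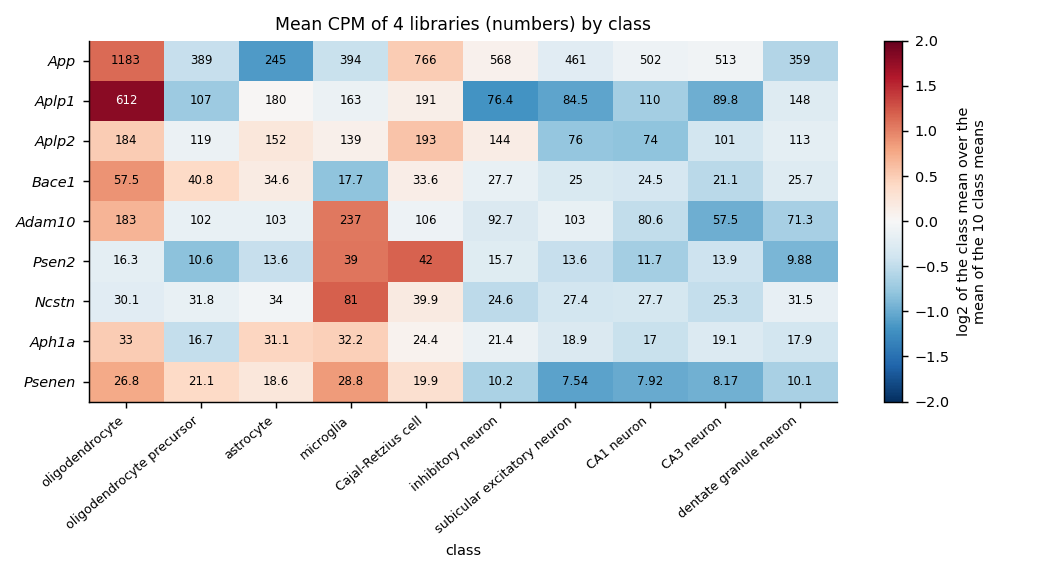
Mean level of each member (rows) in 10 classes (columns). Numbers are CPM averaged over 4 libraries, and colour is the log2 of that mean over the mean of the 10 class means of the same gene, so colours compare classes and not genes. App and Aplp1 are highest in oligodendrocytes (1183 and 612 CPM), Adam10 and Ncstn in microglia (237 and 81.0 CPM).

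Profiles over the 8 classes with at least 30 nuclei in every library were compared by Pearson's r on log2(CPM + 1), as a description over points that share libraries and depth. Over the 36 pairs of members the median r was 0.54, from -0.48 for Psen2 with Ncstn to 0.93 for Bace1 with Psenen. App was most like Tbcd (0.979), Lrrc8b (0.979) and Mtmr4 (0.978) among 10976 genes. Genes close to Bace1 included Glrb (0.989) and Fxr1 (0.988). The 3 closest genes to Aplp1 were Wdr83os, Abhd17a and Psmd6 (0.981 to 0.987), to Aplp2 Fmc1, Bcas3os1 and Zfp395 (0.942 to 0.961) and to Adam10 Arl13b, Mtrf1l and Herc4 (0.968 to 0.986). Among gamma-secretase genes they were Pnpla8, Vps33a and Prpf19 for Psen2 (0.935 to 0.953), Sin3a, Rxylt1 and Dazap2 for Aph1a (0.978 to 0.992), and Rps6kb1, Psat1 and Ppp2ca for Psenen (0.993 to 0.994). With 8 points and so many genes, values this high occur for some gene whatever its profile.

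Groups were then compared within 7 classes, of which 4 are neurons (granule, CA1, CA3 and inhibitory) and 3 are glia (oligodendrocytes, astrocytes and microglia). A comparison is the log2 ratio of 2 class CPM values, with the exact conditional binomial 95% interval for counting error. Of 63 values (9 members in 7 classes), 53 passed a minimum of 50 UMIs over both libraries in each comparison. Values that failed were those of low members in astrocytes and microglia. With exercise, knock-in over WT, 9 of 53 were past 1.5-fold (0.58 on the log2 scale), 7 higher and 2 lower, against 32.5% of all genes tested in the same classes (24.4% higher and 8.1% lower). With trimmed-mean (TMM) or median-of-ratios scaling, which set libraries level on most genes rather than on their total, this split was 4 higher and 5 lower. Without exercise, knock-in over WT, 10 were past 1.5-fold, 9 higher and 1 lower, against 24.5% of all genes (12.7% higher and 11.7% lower). For exercise over no exercise in the knock-in, 18 were past 1.5-fold, 5 higher and 13 lower, against 42.8% of all genes (25.1% higher and 17.8% lower). That split was 1 higher and 16 lower with TMM or median-of-ratios scaling and with the 50 highest genes left out of the total. In WT, 4 were past 1.5-fold, 0 higher and 4 lower, against 11.5% of all genes (2.28% higher and 9.17% lower). A gene that reaches the minimum only through the library where it is high must differ, so these counts describe the values that passed and support nothing. With both directions together the members' shares were 17.0%, 18.9%, 34.0% and 7.55% in the same order, so each was below that of all genes. By direction this did not hold for values higher without exercise (9 of 53, against 12.7%). Nor did it hold for values lower with exercise in the knock-in (13 of 53, against 17.8%).

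The median log2 ratio over these 53 values was 0.13, -0.05, -0.11 and -0.26 in the same order. The medians of all genes per class ran from 0.03 to 0.28, from -0.19 to -0.03, from 0.06 to 0.36 and from -0.17 to -0.05 in that order. Comparisons that share a library hold its values with the same or the opposite sign, so they are not independent: the knock-in without exercise enters the genotype comparison without exercise and the exercise comparison in the knock-in.

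**Figure D3:**
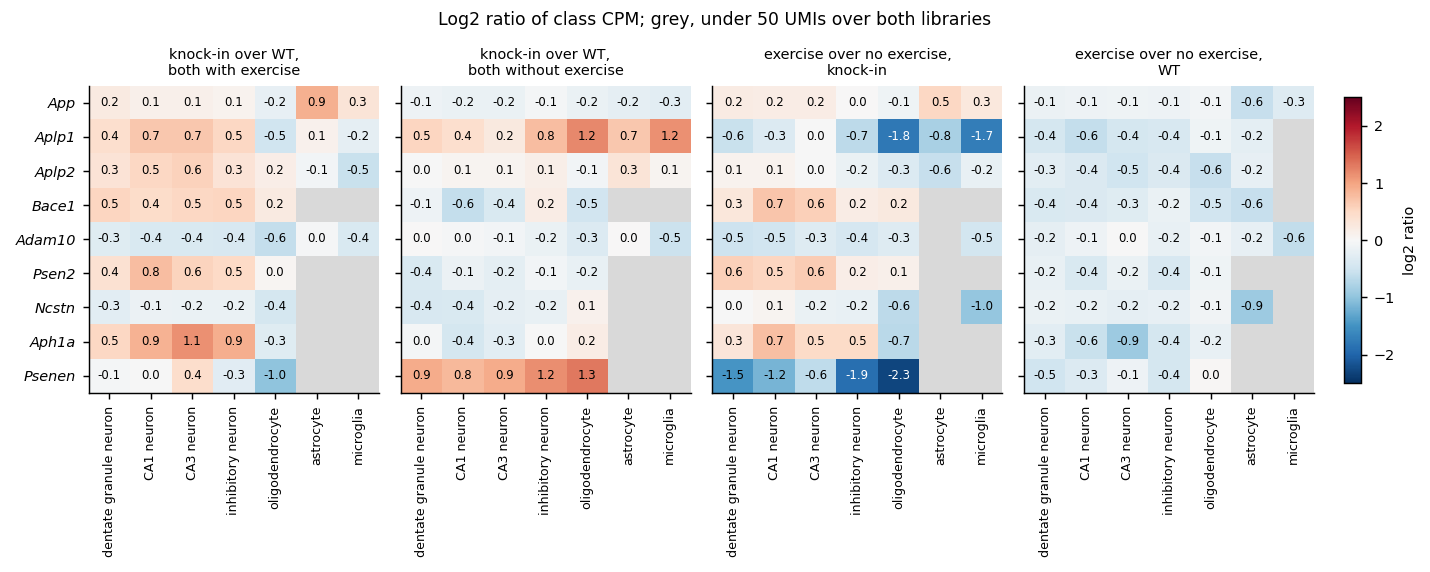
Log2 ratio of class CPM (numbers and colour) for 9 members (rows) in 7 classes (columns) and 4 comparisons (panels). Grey cells have under 50 UMIs over both libraries. Psenen and Aplp1 carry the strongest colours in the middle panels (up to 1.32 and down to -2.30), and App is past 1.5-fold in 1 cell, astrocytes in the first panel (0.89).

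App itself differed little between groups. Knock-in over WT with exercise gave log2 ratios of 0.09 to 0.23 in the 4 neuron classes, and without exercise -0.17 to -0.05. Exercise over no exercise gave 0.01 to 0.21 in knock-in neurons and -0.14 to -0.11 in WT neurons. These values were within the shift of all genes: relative to the all-gene median they lay between -0.15 and 0.12. Their signs depended on scaling. With TMM or median-of-ratios scaling the ratio of knock-in over WT with exercise was down to -0.13 in CA1 and inhibitory neurons and -0.10 in CA3 neurons. The ratio for exercise in WT was then up to 0.08 in CA3 neurons, 0.07 in CA1 neurons and 0.01 in inhibitory neurons.

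In oligodendrocytes, the class with most App, the knock-in was lower than WT both with exercise, at -0.20 (interval -0.28 to -0.11), and without exercise, at -0.16 (interval -0.23 to -0.08), and this sign held under each scaling tried. Relative to the median of all genes of like length the values were -0.42 and 0.17. The one App value past 1.5-fold was in astrocytes with exercise, 103 UMIs in the knock-in and 129 UMIs in WT, at 0.89 (interval 0.50 to 1.27). In the same class without exercise, knock-in over WT was -0.22 (interval -0.84 to 0.35). Exercise over no exercise in astrocytes was 0.52 (interval -0.09 to 1.18) in the knock-in and -0.58 (interval -0.91 to -0.26) in WT. The astrocytes numbered 104 and 65 nuclei in the knock-in with and without exercise and 328 and 332 in WT with and without exercise, and their own marker list stood at 12880 and 10860 CPM in the knock-in with and without exercise and 14270 and 14900 CPM in WT with and without exercise.

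Without exercise, Aplp1 was higher in the knock-in in 7 of 7 classes, by 0.24 to 1.20 on the log2 scale, and past 1.5-fold in 4 of them. With exercise it was higher in the knock-in in the 4 neuron classes, by 0.42 to 0.67, but lower in oligodendrocytes, at -0.49 (interval -0.63 to -0.35). In CA3 neurons it stood at 103 CPM in the knock-in with exercise, 103 CPM in the knock-in without exercise, 64.8 CPM in WT with exercise and 87.8 CPM in WT without exercise. In CA1 neurons it stood at 114 CPM in the knock-in with exercise, 145 CPM in the knock-in without exercise, 71.4 CPM in WT with exercise and 108 CPM in WT without exercise. In CA3 neurons both knock-in libraries thus lay above both WT libraries. In CA1 neurons this order rested on 114 against 108 CPM and turned under TMM and median-of-ratios scaling. There exercise in the knock-in (-0.493 and -0.479) outweighed knock-in over WT without exercise (0.471 under either scaling).

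For exercise over no exercise in the knock-in, the Aplp1 ratio was -1.79 (interval -1.89 to -1.70) in oligodendrocytes, from 1379 and 2499 UMIs, and in microglia it was -1.74 (interval -2.26 to -1.20), from 73 and 55 UMIs. In WT oligodendrocytes the ratio was -0.10 (interval -0.24 to 0.04). The microglial nuclei also held oligodendrocyte markers: the list of 10 stood at 974.2 CPM in the knock-in with exercise, 1882 CPM in the knock-in without exercise, 498.5 CPM in WT with exercise and 647.6 CPM in WT without exercise, and 4 of its markers (Mog, Opalin, Ermn and Aspa) were at 0 in WT with exercise. The list of 11 microglia markers in oligodendrocytes stood at 74.6 CPM in the knock-in with exercise, 128.9 CPM in the knock-in without exercise, 34.5 CPM in WT with exercise and 41.6 CPM in WT without exercise, with Tmem119 at 0 in WT with exercise. Their part in the ratios was not tested.

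Aplp2 stayed within 1.5-fold in all comparisons but 1, astrocytes of the knock-in with over without exercise at -0.59 (interval -1.35 to 0.21), from 41 and 24 UMIs. WT with exercise was its lowest library in 5 of 5 neuron classes, and the same was true of Aplp1 and Aph1a. In these classes the all-gene median was -0.17 to -0.12 for exercise in WT and 0.20 to 0.28 for knock-in over WT with exercise. How many of all genes were lowest in that library is not given here.

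Bace1 was highest in the knock-in with exercise in 5 of 5 neuron classes, where the all-gene medians of that library's comparisons were also above 0. In CA1 neurons it stood at 29.8 CPM in the knock-in with exercise, 18.5 CPM in the knock-in without exercise, 21.8 CPM in WT with exercise and 27.9 CPM in WT without exercise. In CA3 neurons it stood at 26.2 CPM in the knock-in with exercise, 17.4 CPM in the knock-in without exercise, 18.4 CPM in WT with exercise and 22.5 CPM in WT without exercise. The knock-in without exercise and WT with exercise were the lower pair in both classes. Knock-in over WT was thus 0.45 (interval 0.22 to 0.68) with exercise and -0.59 (interval -0.83 to -0.36) without exercise in CA1 neurons. Exercise over no exercise in CA1 neurons was 0.69 (interval 0.45 to 0.93) in the knock-in and -0.35 (interval -0.58 to -0.13) in WT. The signs of Bace1 held under every scaling tried in all classes and comparisons with enough UMIs.

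For Adam10, unlike Bace1, the knock-in with exercise was the lowest library in 5 of 5 neuron classes. In granule neurons it stood at 55.8 CPM in the knock-in with exercise, 80.5 CPM in the knock-in without exercise, 68.8 CPM in WT with exercise and 80.3 CPM in WT without exercise. In CA1 neurons it stood at 62.9 CPM in the knock-in with exercise, 87.8 CPM in the knock-in without exercise, 81.9 CPM in WT with exercise and 89.6 CPM in WT without exercise. In inhibitory neurons it stood at 71.5 CPM in the knock-in with exercise, 96.3 CPM in the knock-in without exercise, 94.9 CPM in WT with exercise and 108 CPM in WT without exercise. The other libraries lay closer to each other than to the knock-in with exercise in CA1 and inhibitory neurons.

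Knock-in over WT with exercise was therefore below 0 in the 4 neuron classes, from -0.41 to -0.30, and in oligodendrocytes at -0.60 (interval -0.82 to -0.38). Exercise over no exercise in the knock-in was -0.53 to -0.31 in neurons and -0.33 (interval -0.52 to -0.14) in oligodendrocytes. Neither neuron range passed 1.5-fold. The sign held in all 7 and all 6 classes measured under each scaling tried, while the median of all genes as long as Adam10 was above 0 in both comparisons (0.07 to 0.22 and 0.17 to 0.45 over the 7 classes). Without exercise, knock-in over WT gave -0.17 to 0.00 in neurons, and exercise in WT gave -0.22 to -0.01, and these signs changed with scaling in some classes.

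Psen2 and Aph1a were, like Bace1, highest in the knock-in with exercise in 5 of 5 neuron classes. The all-gene medians of that library there were 0.20 to 0.28 over WT with exercise and 0.09 to 0.22 over the knock-in without exercise. How many of all genes were highest in that library is not given here. For Psen2 in CA3 neurons the levels were 18.1 CPM in the knock-in with exercise, 11.6 CPM in the knock-in without exercise, 12.3 CPM in WT with exercise and 13.7 CPM in WT without exercise. Knock-in over WT with exercise was past 1.5-fold for Psen2 in CA1 neurons, at 0.76 (interval 0.42 to 1.12). Exercise over no exercise in the knock-in was past 1.5-fold in CA3 neurons, at 0.64 (interval 0.27 to 1.02), and in granule neurons, at 0.59 (interval 0.24 to 0.94). These Psen2 values fell within 1.5-fold under TMM and median-of-ratios scaling. They were then 0.51 and 0.51 in CA1 neurons, 0.45 and 0.46 in CA3 neurons, and 0.53 and 0.52 in granule neurons. Without the 50 highest genes only the CA1 value stayed past it, at 0.64. In oligodendrocytes Psen2 was the most even of the members, between 15.2 and 17.3 CPM in the 4 libraries.

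Aph1a in CA3 neurons stood at 25.2 CPM in the knock-in with exercise, 18.1 CPM in the knock-in without exercise, 11.5 CPM in WT with exercise and 21.6 CPM in WT without exercise. In CA1 neurons it stood at 23.1 CPM in the knock-in with exercise, 13.8 CPM in the knock-in without exercise, 12.7 CPM in WT with exercise and 18.6 CPM in WT without exercise. In both classes WT with exercise was lowest and the knock-in with exercise highest, with counting intervals that did not touch. With exercise, knock-in over WT gave Aph1a ratios of 1.13 (interval 0.80 to 1.47) for CA3 neurons, 0.87 (interval 0.58 to 1.16) for CA1 neurons and 0.91 (interval 0.50 to 1.33) for inhibitory neurons. Exercise over no exercise was 0.48 (interval 0.17 to 0.79) in the knock-in and -0.91 (interval -1.24 to -0.59) in WT in CA3 neurons. In oligodendrocytes Aph1a lay the other way, at -0.66 (interval -1.09 to -0.24) for exercise in the knock-in and -0.31 (interval -0.85 to 0.26) for knock-in over WT with exercise.

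Ncstn was lower in the knock-in in the 4 neuron classes compared (granule, CA1, CA3 and inhibitory). Its log2 ratios there were -0.26 to -0.14 with exercise and -0.40 to -0.18 without exercise, none past 1.5-fold. In granule neurons it stood at 27.7 CPM in the knock-in with exercise, 28.0 CPM in the knock-in without exercise, 33.1 CPM in WT with exercise and 37.1 CPM in WT without exercise. Both knock-in libraries lay below both WT libraries there and in CA1 neurons. Past 1.5-fold in the compared classes were 3 values. In the knock-in with over without exercise these were oligodendrocytes at -0.64 (interval -1.10 to -0.19) and microglia at -0.97 (interval -1.86 to -0.03). The other was WT astrocytes with over without exercise, at -0.90 (interval -1.75 to -0.10) from 20 and 41 UMIs. Subicular neurons were not among the compared classes. Ncstn there was at 0.42 with exercise and -0.77 without exercise for knock-in over WT. Its ratio for exercise over no exercise there was 1.03 (interval 0.56 to 1.51) in the knock-in and -0.16 (interval -0.59 to 0.27) in WT.

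Psenen showed the widest differences, and the knock-in without exercise was its highest library in 5 of 5 neuron classes and in oligodendrocytes. In oligodendrocytes it stood at 10.8 CPM in the knock-in with exercise, 53.4 CPM in the knock-in without exercise, 21.7 CPM in WT with exercise and 21.4 CPM in WT without exercise. In granule neurons it stood at 6.42 CPM in the knock-in with exercise, 17.9 CPM in the knock-in without exercise, 6.66 CPM in WT with exercise and 9.44 CPM in WT without exercise. In inhibitory neurons it stood at 5.41 CPM in the knock-in with exercise, 19.98 CPM in the knock-in without exercise, 6.60 CPM in WT with exercise and 8.96 CPM in WT without exercise. In the 5 classes measured, knock-in over WT without exercise was past 1.5-fold, from 0.82 in CA1 neurons to 1.32 in oligodendrocytes, and exercise over no exercise in the knock-in was past 1.5-fold below 0, from -0.63 in CA3 neurons to -2.30 in oligodendrocytes. With exercise, knock-in over WT lay between -0.29 and 0.44 in neurons, with intervals that held 0, and past 1.5-fold below 0 in oligodendrocytes, with the interval -1.72 to -0.25 from 45 and 27 UMIs.

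**Figure D4:**
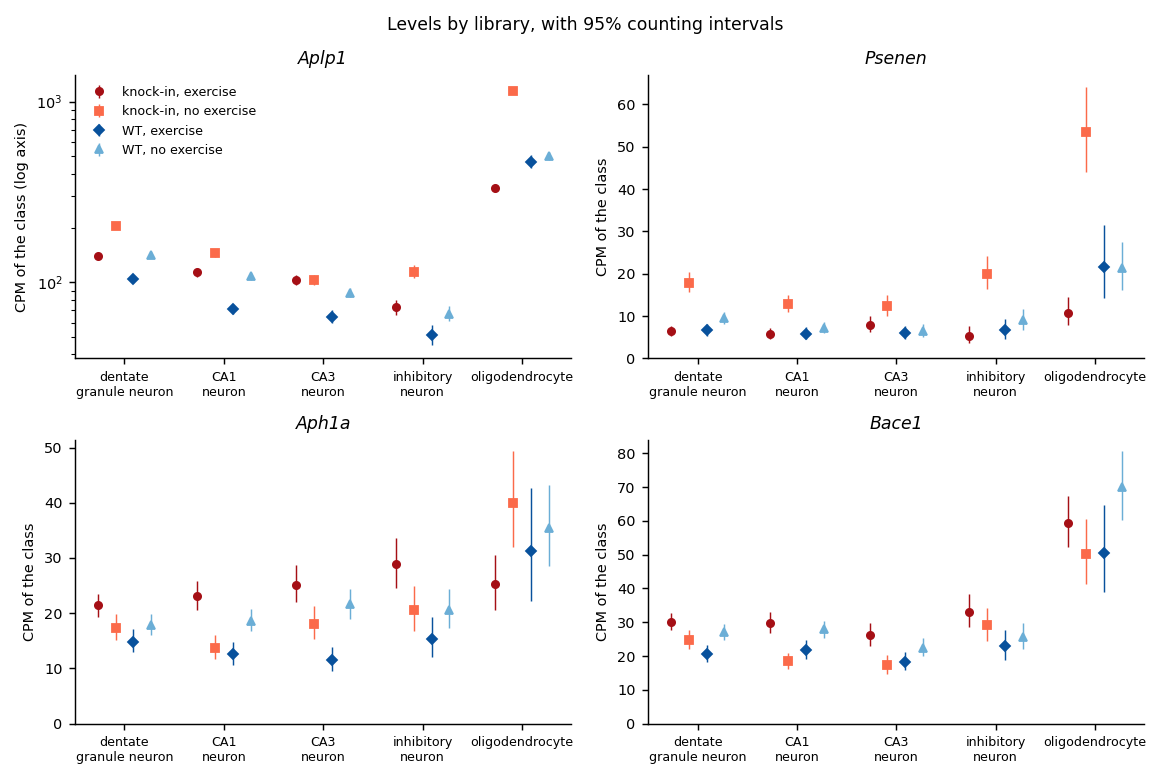
Levels of Aplp1 (log axis), Psenen, Aph1a and Bace1 (y axes, CPM of the class) in 5 classes, with 1 point per library and bars for the 95% counting interval. The knock-in without exercise is highest for Psenen in all 5 classes, and the knock-in with exercise is highest for Aph1a and Bace1 in the 4 neuron classes.

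The members' ratios were set beside those of all genes of like length, because short genes as a group differed between libraries. Genes were divided by length into 5 bands of equal number at 3.24, 8.09, 18.5 and 45.0 kb. For exercise over no exercise in the knock-in, the median of all genes in oligodendrocytes was -1.60 in the shortest band, -0.86, -0.35 and -0.03 in the next bands and 0.44 in the longest. For knock-in over WT without exercise it was 0.95, 0.53, 0.18, -0.05 and -0.33 in the same order. Psenen (1.76 kb) belongs to the shortest band, Aph1a (4.32 kb) to the next, Aplp1 (10.6 kb) and Ncstn (16.8 kb) to the middle one, Bace1 (25.8 kb) and Psen2 (36.4 kb) to the next longer one, and Aplp2 (62.3 kb), Adam10 (101 kb) and App (224 kb) to the longest.

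Relative to the median of their own band, the members past 1.5-fold numbered 5 with exercise and 5 without exercise for knock-in over WT, and 16 in the knock-in and 2 in WT for exercise over no exercise. Of all genes on the same footing, 27.0% and 20.7% were past it for knock-in over WT with and without exercise, and 39.0% and 8.47% for exercise in the knock-in and in WT. Psenen was then within 1.5-fold in all 5 classes for knock-in over WT without exercise, at 0.24 to 0.49, and remained past it for exercise in the knock-in in oligodendrocytes (-0.70) and inhibitory neurons (-0.90). Aplp1 in oligodendrocytes stayed past 1.5-fold in both, at 1.03 and -1.44. Adam10 for exercise in the knock-in was -0.77 in oligodendrocytes and from -0.75 to -0.49 in neurons on that footing. Whether length or another property that goes with it moved these values was not tested.

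**Figure D5:**
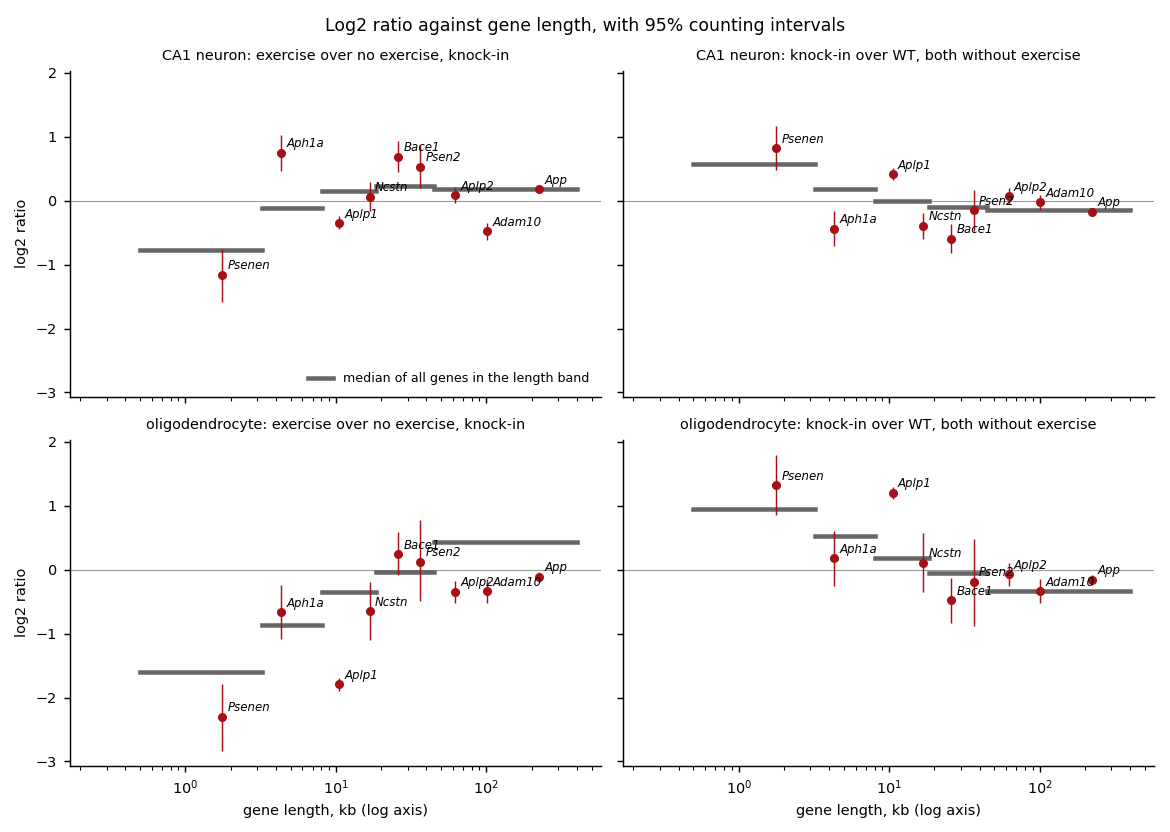
Log2 ratio (y axis) against gene length in kb (x axis, log) for the 9 members in CA1 neurons and oligodendrocytes, for exercise over no exercise in the knock-in (left) and knock-in over WT without exercise (right). Bars on points are 95% counting intervals, and grey lines are the median of all genes in each length band. In oligodendrocytes Psenen stands at -2.30 and 1.32 beside lines at -1.60 and 0.95, and Aplp1 at -1.79 and 1.20 beside lines at -0.35 and 0.18.

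Other genes of the pathway were counted from fixed lists by the same rule. Of 6 other secretase genes, values past 1.5-fold were 1 of 27 for knock-in over WT with exercise (3.70%), 2 of 26 without exercise (7.69%), 1 of 28 for exercise in the knock-in (3.57%) and 2 of 26 for exercise in WT (7.69%). Among them, named after their values were seen, were Bace2 in CA3 neurons at -0.89 for knock-in over WT with exercise, Aph1c in CA3 neurons at -0.65 and Aph1b in inhibitory neurons at 0.67 without exercise, and Adam17 in inhibitory neurons at -0.64 for exercise in WT. Aph1b and Aph1c are near-identical copies that counting may split, so their values are uncertain. The list medians were 0.08, -0.15, 0.14 and -0.13 in the same order of comparisons.

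Genes for adaptors and sorting of App (17 genes, such as Sorl1, Apba2 and Dab1) had 44 of 109 values past 1.5-fold for knock-in over WT with exercise (37 higher and 7 lower), 27 of 106 without exercise (8 and 19), 56 of 108 for exercise in the knock-in (37 and 19) and 19 of 104 for exercise in WT (0 and 19). Their medians were 0.28, -0.16, 0.26 and -0.19. Genes for amyloid-beta degradation and clearance (8 genes, such as Apoe, Ide and Mme) had 18 of 40 (11 and 7), 21 of 37 (12 and 9), 33 of 38 (15 and 18) and 6 of 39 (0 and 6), with medians of 0.07, 0.14, -0.27 and -0.32. As shares these were 40.4%, 25.5%, 51.9% and 18.3% for adaptors and sorting, and 45.0%, 56.8%, 86.8% and 15.4% for degradation and clearance, beside the 32.5%, 24.5%, 42.8% and 11.5% of all genes. The lists hold glial genes whose values come partly from small classes, and the differences from all genes were not tested.

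The furthest genes of these lists were mostly in glia. With exercise, knock-in over WT, Sorl1, a sorting receptor for App, had 98 UMIs in knock-in microglia and 0 UMIs in WT microglia. Set against a floor of 3 UMIs in the WT library it was 1.92-fold higher. The counting interval of its log2 ratio reached down to 0.62. Apbb2 in microglia was at 2.05 (interval 1.12 to 3.19), from 634 UMIs in the knock-in and 9 UMIs in WT. Cst3, a protease inhibitor, was at -1.83 in microglia, and Clu, a lipid carrier, at -1.34 in oligodendrocytes. Without exercise, Apoe, the main lipid carrier of glia, was at 901.7 CPM in knock-in microglia and 224.2 CPM in WT microglia, a log2 ratio of 2.01. Apbb2 was at 535.4 CPM in knock-in microglia and 189.3 CPM in WT microglia, while Dab1 was at -1.45 in microglia. Sorl1 in astrocytes was at -1.25 (interval -2.5 to -0.23), from 8 UMIs in the knock-in and 124 UMIs in WT. For exercise over no exercise in the knock-in, Dab1 was at 2.43 and Apba2 at 1.84 in oligodendrocytes, Cst3 at -3.48 in microglia and Itm2b at -2.86 in astrocytes. Dab1 was at 1118 and 207.6 CPM in oligodendrocytes of the knock-in with and without exercise, and at 4287 and 3705 CPM in granule neurons of the same libraries. Marker lists of other cells in these oligodendrocytes moved both ways between the knock-in with and without exercise. Higher with exercise were those of CGE inhibitory neurons (4 genes, 477.5 and 107.7 CPM) and oligodendrocyte precursors (6 genes, 336.6 and 109.1 CPM). The granule neuron list (8 genes) was at 3982 and 3194 CPM. None of the genes of these lists was at 0. Among those lower with exercise were the lists of CA2 neurons (39.9 and 82.4 CPM), microglia (74.6 and 128.9 CPM) and choroid plexus (7.46 and 269.7 CPM). Their part in the ratios was not tested. In WT, Apba3 was at -1.36 in CA3 neurons and Apoe at -1.15 in astrocytes.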

How the data were processed

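The hippocampal nuclei of 4 libraries were measured by droplet RNA sequencing (10x Chromium 3′ v3.1, per the labels' protocols). The deposited matrices hold raw counts of UMIs for each gene in each barcode. Cell Ranger appears as version 5.0.1 per the file headers and as version 3.1.0, with mm10, per the submitters' processing notes. Intron counting was not given in the sources used here. An assay of open chromatin named in the series design was not analysed here.

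Nuclei needed 500 genes or more, 1000 UMIs or more and a mitochondrial share under 5%, and 5.51% to 8.98% of them were left out as doublets, ranked by likeness to simulated pairs (0.8% per 1000 nuclei). Clustering (scanpy 1.11.5, 2000 variable genes, 30 components, Leiden resolution 1.0, no integration) gave 28 clusters, of which 8 stayed unnamed because markers were too few or mixed, with 10.1% to 14.3% of nuclei. In glial, vascular, ependymal and Cajal-Retzius classes, nuclei above 3 times the 25th percentile of UMIs were left out as possible doublets. This limit was chosen after seeing the data. Of microglia it left out 54 of 339 nuclei in the knock-in with exercise and 77 of 199 without exercise. In WT it left out 25 of 50 with exercise and 56 of 175 without exercise. These nuclei held 49.65%, 77.41%, 89.48% and 76.85% of the class UMIs in the same order. UMIs were summed per library and class. Ratios and intervals were tested on simulated Poisson counts, with the minimum of 50 UMIs applied but not varied. The simulation did not hold the differences between libraries described above. Coordinates and lengths come from GENCODE M21 (32158 of 32285 identifiers matched) and start regions from RefSeq.

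The members, gene lists and markers were chosen with earlier results of these data known. Named genes are the 9 members, at most 2 list genes past 1.5-fold in each direction per comparison, and for each member the 3 genes with the highest r among those with at least 1000 UMIs. Alternatives used edgeR 4.0.16 (TMM), median-of-ratios size factors, a total without the 50 highest genes, thinning to 1500 UMIs, other filters, clusterings, minima and folds, and, added after seeing the data, no upper UMI limit and ratios relative to the median of all genes or of genes of like length. Values of some list genes and close genes are not reported here.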

Additional observations from a re-analysis of the deposited data

Results flagged for a closer look

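For 11 values of members in the 7 compared classes, the log2 ratio of exercise over no exercise was above 0 in the knock-in and below 0 in WT, with counting intervals that did not hold 0 in either. With 1 library a group, the difference between genotypes was not tested. The medians of all genes in these classes had the same signs. Knock-in medians lay between 0.06 and 0.36, while WT medians lay between -0.17 and -0.05. How many of all genes met this rule was not counted, so the 11 values do not set the members apart from other genes. For Bace1, the difference of the log2 ratios (knock-in minus WT) was 1.04 in CA1 neurons (0.69 in the knock-in and -0.35 in WT), 0.886 in CA3 neurons (0.59 in the knock-in and -0.29 in WT) and 0.679 in granule neurons (0.29 in the knock-in and -0.39 in WT). For App, none of whose neuron ratios passed 1.5-fold, it was 0.302 in CA1 neurons (0.18 in the knock-in and -0.12 in WT), 0.294 in CA3 neurons (0.18 in the knock-in and -0.11 in WT) and 0.349 in granule neurons (0.21 in the knock-in and -0.14 in WT). For Aph1a it was 0.567 in granule neurons (0.30 in the knock-in and -0.27 in WT), 1.31 in CA1 neurons (0.75 in the knock-in and -0.56 in WT), 1.39 in CA3 neurons (0.48 in the knock-in and -0.91 in WT) and 0.918 in inhibitory neurons (0.49 in the knock-in and -0.43 in WT). For Psen2 it was 0.914 in CA1 neurons (0.53 in the knock-in and -0.38 in WT). The all-gene medians in CA1 neurons were 0.14 in the knock-in and -0.17 in WT for the same comparison, so the medians differed in the same direction. Relative to those medians, App in CA1 neurons was at 0.045 in the knock-in and 0.051 in WT. In CA3 neurons, relative to theirs, it was at 0.0011 in the knock-in and 0.062 in WT, so its values were no longer opposite in either class. In granule neurons, relative to theirs, App was still opposite, at 0.12 in the knock-in and -0.02 in WT. Bace1 in CA1 neurons was then at 0.55 in the knock-in and -0.18 in WT, Aph1a at 0.61 in the knock-in and -0.39 in WT, and Psen2 at 0.39 in the knock-in and -0.21 in WT.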

How the results depend on the processing

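No paired analysis was possible because each group had 1 library, and for the same reason no replicate could be left out. Counts of members past 1.5-fold, in the order knock-in over WT with exercise (9) and without exercise (10), then exercise over no exercise in the knock-in (18) and in WT (4), depended mostly on the fold and the minimum. At a ratio of 5 to 4 they were 32, 20, 30 and 23 of 53 values, and at 2-fold 2, 4, 6 and 0 of 53. With no minimum of UMIs they were 14, 16 and 8 of 63 for the genotype comparisons and exercise in WT. With at least 200 UMIs they were 5 of 39 for genotype without exercise, 9 of 39 in the knock-in with over without exercise and 2 of 40 for exercise in WT. The shares of all genes at these other folds and minima are not given here, so these counts do not set the members apart from other genes. Relative to the median of all genes of like length the genotype counts were 5 and 5. That count for exercise in WT was 2, and it was also 2 relative to the median of all genes and with median-of-ratios size factors. Other alternatives moved no count of both directions together by over 1.5 times, but some moved the split. Thinned, the members without exercise were 6 higher and 5 lower, against 9 higher and 1 lower, and relative to the median of all genes those with exercise were 4 higher and 6 lower, against 7 higher and 2 lower.

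App in granule neurons kept its sign under the scaling, filtering, thinning and clustering alternatives, with smaller values under some. Relative to genes of like length it was 0.019 for genotype without exercise and -0.017 for exercise in the knock-in, both signs turned. Knock-in over WT with exercise was 0.062 under TMM, 0.044 under size factors and 0.12 without the 50 highest genes, and without exercise -0.036 without those genes and -0.054 thinned to 1500 UMIs. Exercise in the knock-in was 0.14 under TMM, 0.14 under size factors and 0.082 without the highest genes. In WT it was -0.016, -0.0075 and -0.079 in that order and -0.077 when thinned. Thinning, which left out 318 nuclei in the knock-in with exercise, 1185 in the knock-in without exercise, 347 in WT with exercise and 463 in WT without exercise, reversed Aplp1 in astrocytes for genotype without exercise (-0.011) and Psenen in CA3 neurons for exercise in the knock-in (0.17). The cause was not tested. Of 244 member ratios, 60 moved beyond their counting interval under TMM, 61 under size factors, 86 when thinned, 28 with doublets kept and 0 when the pathway genes were left out of clustering. Signs changed under some scaling in 4 of 53 values for genotype with exercise, 8 without exercise, 5 for exercise in the knock-in and 12 in WT. App stayed highest in oligodendrocytes and lowest in astrocytes under the 6 alternatives of filtering and clustering. Microglia of WT with exercise (25 nuclei) and astrocytes of the knock-in without exercise (65 nuclei) limit what their values can show.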
